A study of Mus musculus with 24 samples.

Results

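The genes described here are those for the protein components of the cytosolic ribosome, taken by their symbols: Rpl or Rps with a number and at most a short suffix, Rplp0 to Rplp2, and Rpsa, leaving out the S6 kinase genes and rows named as pseudogenes. The rule took 80 of the 13803 genes measured, 48 with large subunit names and 32 with small subunit names. In the GENCODE M21 annotation (GRCm38) 78 of the 80 were protein-coding, while Rpl32l was annotated as a processed pseudogene and Rps4l as a transcribed processed pseudogene. RNA was sequenced from stromal cells of embryonic mouse kidneys, isolated by fluorescence-activated cell sorting on a FoxD1Cre-eGFP transgene, whose Foxd1 promoter is active in the kidney's stromal progenitors. The 24 libraries formed 8 groups of 3. Beta-catSD cells, deficient in beta-catenin, were on the C57BL/6 background. Beta-catSO cells, with stabilised beta-catenin, were on the CD1 background. Cells labelled wild-type came from either strain. Every one of these was sampled at embryonic days E12.5 and E13.5. Beta-catSD and beta-catSO are written SD and SO from here on, and the sources used here do not give the alleles behind these names. Each line had its own strain. Library titles mark the C57BL/6 wild-types (K-O-con) as controls of the SD line and the CD1 wild-types (Stab-con) as controls of the SO line. Line and strain therefore cannot be told apart, also in the comparison of the wild-types. The series text speaks of 3 kidneys per genotype, and nothing says whether the 3 libraries of a group are separate kidneys or animals, so each p-value measures the spread between these libraries, which may be technical.

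The cytosolic ribosome has a small subunit, which reads the messenger RNA, and a large subunit, which forms peptide bonds. Most of its proteins are present in a single copy, so the cell needs them in near equal numbers. Their mRNAs typically begin with a run of pyrimidines, the 5′ terminal oligopyrimidine (TOP) tract, through which mTOR signalling controls their translation. Beta-catenin is the transcriptional effector of canonical Wnt signalling, and Myc, one of its known targets in other tissues, is known to drive genes of ribosome production. Mammalian genomes also carry many processed pseudogenes of these genes, which are inserted copies of spliced mRNAs and often differ from the parent transcript at only a few bases.

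Library totals ran from 6184257 to 21168300 reads assigned to genes, recovered as whole numbers from the deposited values, and levels are given as log2 CPM, the log2 of reads scaled to library size. The 8 stromal markers had a summed level of 12.58 to 13.33 log2 CPM in all 24 libraries. Nephron progenitor markers summed to 3.54 to 8.29 and ureteric epithelium markers to 4.75 to 7.24. Markers of blood and liver cells varied far more, with 4 erythroid markers between 2.95 and 11.98 log2 CPM and 4 hepatocyte markers between -1.68 and 11.89. A gene was called where limma's adjusted p-value (Benjamini-Hochberg over all 13803 genes) was below 0.05.

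Ribosomal protein genes together took 2.83% to 4.14% of a library's reads, and Rplp0, which encodes the base of the ribosomal stalk, was the most abundant member by reads in every library. In CD1 wild-type cells at E12.5 their share was 3.59%, 3.47% and 3.44% in replicates 1 to 3. In SO cells of the same stage it was 2.89%, 2.83% and 3.03%, so that the groups did not overlap. At E13.5 the share was 4.14%, 3.52% and 3.74% in CD1 wild-type cells against 3.22%, 3.45% and 3.42% in SO cells, again without overlap. C57BL/6 wild-type cells had 3.51%, 3.26% and 3.22% at E12.5 and 3.53%, 3.93% and 4.05% at E13.5, and here too the stages did not overlap. SD cells showed no such step, with 3.62%, 3.34% and 3.44% at E12.5 and 3.56%, 3.23% and 3.53% at E13.5. Both subunits had the same order: the large subunit genes took 1.72% of reads on average in SO cells at E12.5 and 2.08% in their wild-type, and the small subunit genes 1.20% and 1.42%. No test was run on these summed shares.

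**Figure D1:**
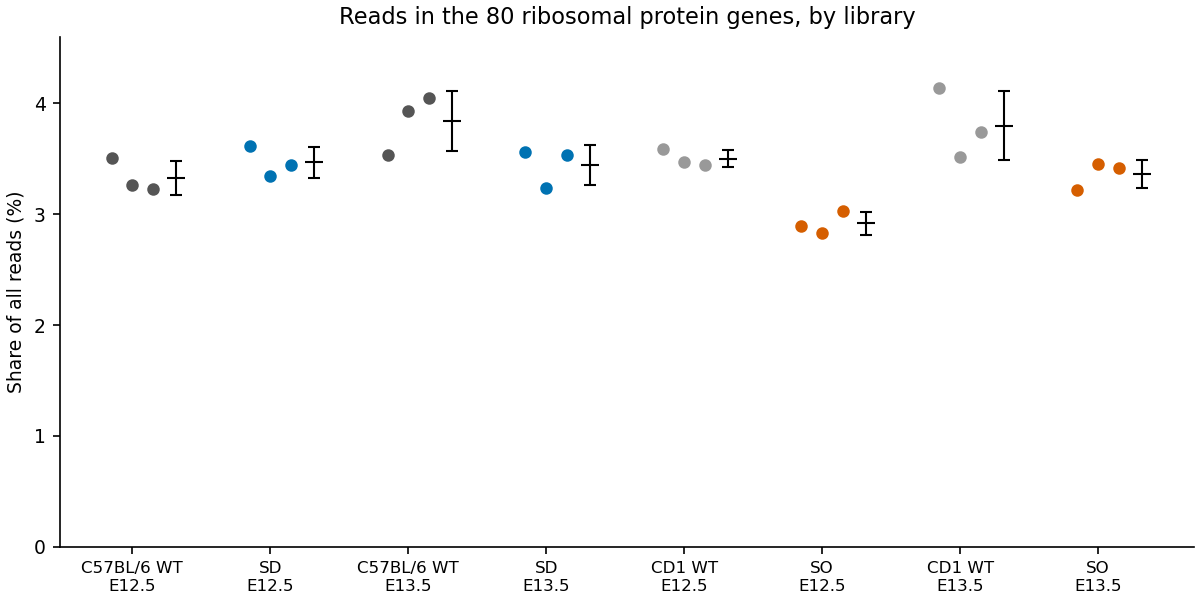
Share of all reads (%) in the 80 ribosomal protein genes, by library. Each coloured point is 1 library, and the black bar beside each group is its mean ± SD (n = 3). The SO libraries at E12.5 lie between 2.83% and 3.03%, below the lowest CD1 wild-type library of that stage at 3.44%.

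Per kilobase of transcript, the members' mean levels ranged from 1.30 to 10.76 log2 CPM per kb with a median of 9.05. The 4 highest were the stalk protein gene Rplp1 at 10.76, Rpl8 at 10.28, Rps15 at 10.22 and Rplp0 at 10.21 log2 CPM per kb. The 4 lowest were Rpl32l at 1.30, Rps27 at 1.66, Rpl29 at 2.14 and Rpl30 at 2.33. Rps27, Rpl29 and Rpl30 encode regular ribosomal proteins, yet Rps27 had only 265 reads over all 24 libraries. Its alternative form Rps27l, a p53-regulated paralogue, had 17310 reads and stood at 7.16 log2 CPM per kb. Only 1.4% of the 50-base stretches of the Rps27 transcript occur in no other annotated gene, against 77.6% for Rps27l. The level of Rps27, and so its place below Rps27l, is therefore uncertain. In the other paralogue pairs the usual form was higher: Rpl22 stood at 9.55 and Rpl22l1 at 6.99, Rpl7 at 9.70 and Rpl7l1 at 7.05, and Rps4x at 9.96 and Rps4l at 6.19. The files held Rpl3, Rpl10 and Rpl39 without an alternative form, at 9.60, 7.12 and 7.93 log2 CPM per kb.

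Most members varied little between groups. The range of a member's 8 group means had a median of 0.47 on the log2 scale and was under 1 in 66 members, while the median within-group SD was 0.14. The widest ranges were those of Rpl35a (8.24), Rpl29 (4.70) and Rps2 (4.28), and the narrowest those of Rpl6 (0.16), Rpl7a (0.26) and Rps14 (0.27). The lowest of the 8 group means was that of SO cells at E12.5 in 58 of 80 members. The highest was that of C57BL/6 wild-type cells at E13.5 in 42 members. Neither count was made over all genes.

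SO cells were compared with CD1 wild-type cells of the same stage, asking what stabilised beta-catenin goes with. At E12.5 ribosomal protein genes were lower in SO cells almost throughout: 71 of 80 lay below their wild-type level, with a median log2 change of -0.24, against a median of 0.003 over all genes. Of the 80, 23 fell and 1, Rpl35a, rose, where 3% of all genes fell and 5.17% rose, 8.16% in all. In 47 members all 3 SO libraries lay below all 3 wild-type libraries, against 14% of all genes. The 23 that fell comprised 14 large subunit and 9 small subunit genes. In these bulk libraries fewer cells with a high level and less RNA per cell cannot be told apart.

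The 4 largest falls were those of Rpl41, Rps2, Rpl34 and Rpl13a. Rpl13a, whose protein is also known for a role in translational silencing after interferon, had 10.13, 10.07 and 10.08 log2 CPM in wild-type cells and 9.39, 9.58 and 9.48 in SO cells. The groups were well apart, with a log2 change of -0.61 (SE 0.10, adjusted p = 0.00017), and the call held in each of the 6 fits without 1 library (highest adjusted p = 0.0021). Rpl41, which encodes the smallest ribosomal protein, had 8.85, 8.76 and 8.87 log2 CPM in wild-type cells against 7.26, 6.63 and 6.42 in SO cells. Its change was -2.06 (SE 0.54, adjusted p = 0.018), but single C57BL/6 wild-type libraries ranged from 6.70 to 9.18, and the call was lost without SO replicate 2 or 3 or CD1 wild-type replicate 1 or 3 (highest adjusted p = 0.086). Rpl34 had 1.29, 1.49 and 2.02 log2 CPM in wild-type cells and 1.23, -0.22 and -0.27 in SO cells, which rests on 5 to 39 reads per library. Its change of -1.35 (SE 0.41, adjusted p = 0.044) was lost in the fits without SO replicate 2 or 3 or any single wild-type replicate. Rps2 is described with the strain comparison below.

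The other 19 genes that fell had log2 changes between -0.60 and -0.22, with adjusted p between 0.00079 and 0.046. In order of size they included Rpl36a, Rpl36, Rpl10a, Rps18, Rpl27a, Rpl18, Rps15a, Rps10, Rpl23, Rps15, Rpl11, Rpl22, Rpl9, Rps3, Rps19, Rps14 and Rpl5, names that were read off after the values were seen. Rpl5 and Rpl11 bind the 5S rRNA and, outside the ribosome, the p53 inhibitor Mdm2, whereas Rps14, Rps15 and Rps19 belong to the head or platform of the small subunit. Rpl10a, Rpl22, Rpl36 and Rps18 kept their calls in every fit that left out 1 library. The count of members called fell from 24 to 12, 11 and 14 without SO replicate 1, 2 or 3, and to 8, 14 and 14 without CD1 wild-type replicate 1, 2 or 3, while the median log2 change stayed between -0.26 and -0.21.

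Libraries of these groups also differed otherwise. The SO libraries at E12.5 held 6184257 to 6665975 reads and the CD1 wild-type libraries 9564750 to 10029826. The summed erythroid markers (4 of 5 measured) were at 5.86 to 9.93 log2 CPM in SO cells and 11.65 to 11.69 in wild-type cells. The summed hepatocyte markers (4 of 4 measured) were at -1.68 to -0.73 in SO cells, with Alb and Ttr without a read, and at 7.50 to 7.60 in wild-type cells. Macrophage markers were closer, at 8.61 to 9.25 against 9.15 to 9.20, as were stromal markers at 13.02 to 13.06 against 13.14 to 13.17 and ureteric epithelium markers at 5.62 to 6.01 against 5.12 to 5.47. Singly, 2 of the 5 ureteric markers lay above their wild-type level and 3 below, with a median log2 change of -0.16. Only Wnt11 of them was called, higher by 0.79 (SE 0.16, limma adjusted p = 0.0022). The part of depth and of these other cells in the lower ribosomal protein levels was not tested. With a trend on transcript length taken out of each library, 12 members fell and 1 rose.

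**Figure D2:**
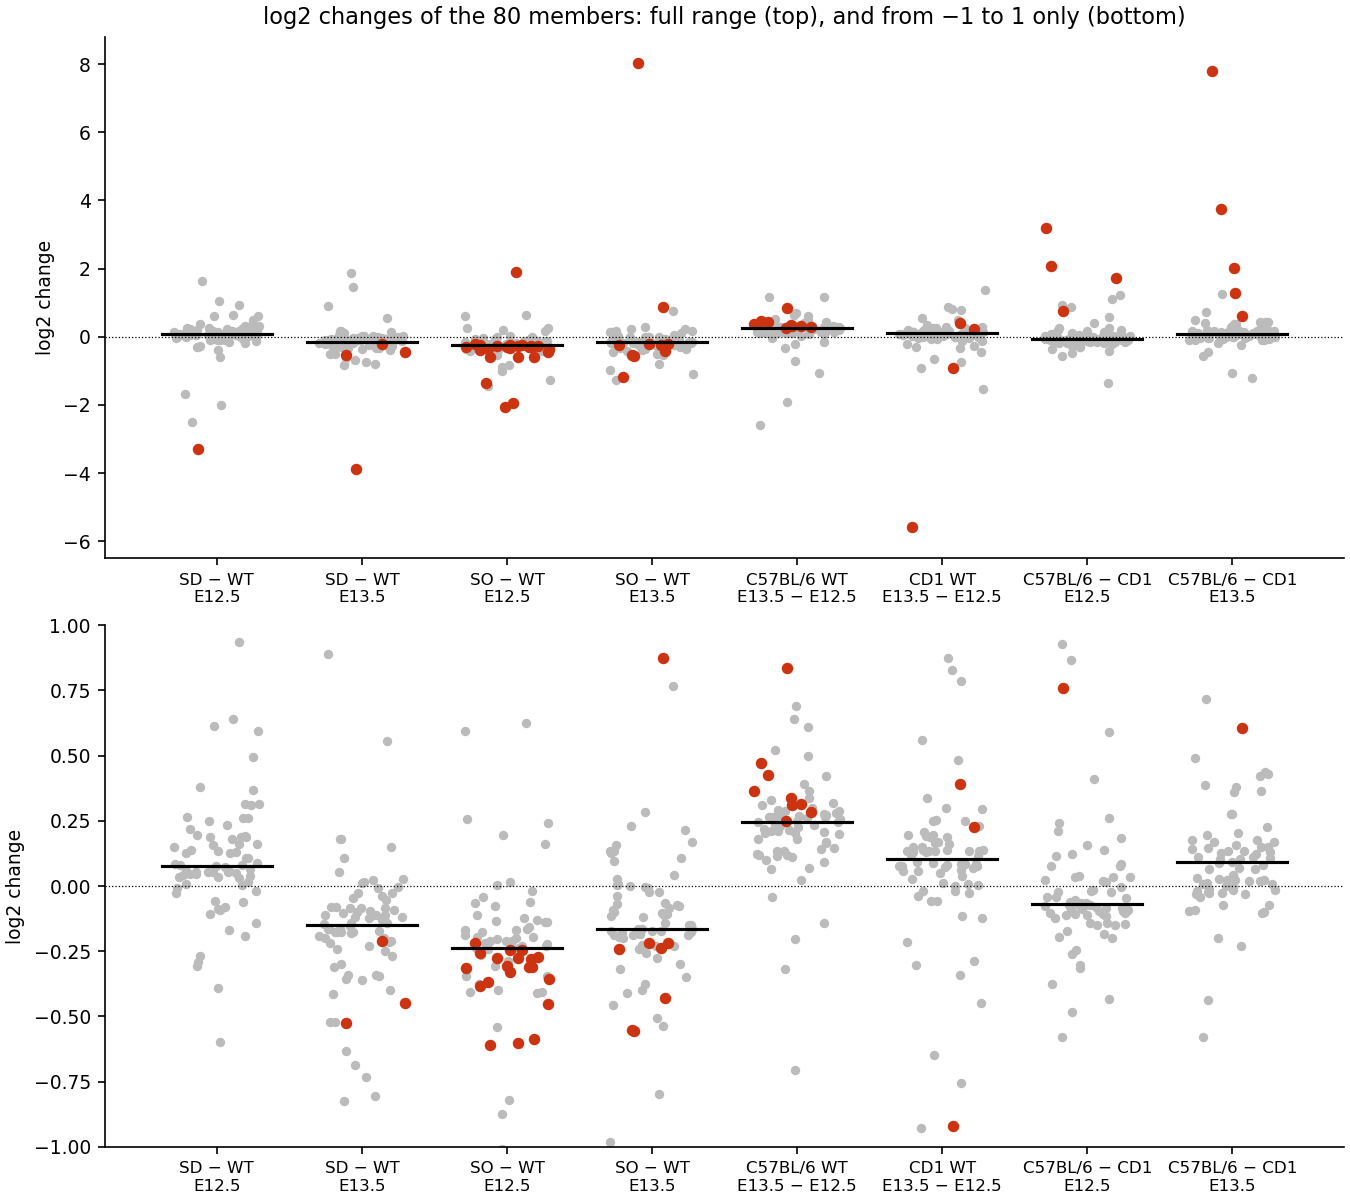
log2 changes (vertical axis) of the 80 members in 8 comparisons, over the full range (top) and between -1 and 1 only (bottom). Each point is 1 gene, red where called at an adjusted p below 0.05, and the black line is the median of the 80. The medians are -0.24 for SO against wild-type at E12.5 and 0.25 for C57BL/6 wild-type at E13.5 against E12.5.

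At E13.5 fewer members were called between SO and CD1 wild-type cells: 8 fell and 2 rose, where 6.83% of all genes fell and 8.53% rose, 15.4% in all. Below their wild-type level lay 63 of 80, with a median log2 change of -0.17. The count called was 5 without SO replicate 1, 5 without CD1 wild-type replicate 1 and 17 without CD1 wild-type replicate 2, and the median change then was -0.10, -0.09 and -0.22. With precision (voom) weights in limma 19 members were called, 17 of them lower. CD1 wild-type libraries differed among themselves here, with summed hepatocyte markers from -0.74 to 9.66 log2 CPM and erythroid markers from 5.33 to 11.98. Macrophage markers stood at 8.43 to 9.70 in SO and 7.94 to 8.29 in wild-type cells, and their part in the result was not tested.

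Among the 8 that fell were Rps2, Rpl14, Rpl13a and Rps15a. Rpl13a again had groups well apart, with 10.14, 9.97 and 10.06 log2 CPM in wild-type cells and 9.58, 9.44 and 9.50 in SO cells, a change of -0.55 (SE 0.10, adjusted p = 0.00022). Rps15a, a small subunit protein gene, had 8.64, 8.42 and 8.51 log2 CPM against 7.94, 8.14 and 8.22, a change of -0.43 (SE 0.09, adjusted p = 0.0012). Both calls held in every fit without 1 library. Rpl14 had 8.62, 8.97 and 8.52 log2 CPM against 8.06, 8.19 and 8.19, a change of -0.56 (SE 0.17, adjusted p = 0.031) that was lost without any one of the SO replicates or CD1 wild-type replicate 2. The remaining 4, which included Rpl5, Rpl22 and Rpl7, had changes between -0.24 and -0.22 (adjusted p between 0.011 and 0.047).

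The comparisons at E12.5 and E13.5 share no library. There were 6 members that fell in both, including Rpl13a, Rpl22, Rpl5, Rps15a and Rps2, which is 26.1% of those that fell at E12.5 and 75% of those at E13.5. Rpl35a rose in both. Of all 80 members, 58 lay below their wild-type level at both stages and 5 above it at both. These overlaps were not counted over all genes, so whether they exceed the overlap of other genes cannot be said. Whether the SO difference itself changed from E12.5 to E13.5 was tested as an interaction: of the members only Rpl35a passed, with a positive difference, where 1.33% of all genes passed and 0.717% with a positive difference, and the members' median difference between stages was 0.10 on the log2 scale. That median was not stable: it was 0.02 without CD1 wild-type replicate 2 of E13.5, 0.16 without its replicate 1 and 0.15 without SO replicate 1 of E13.5. With the length trend removed the members' median was 0.04. The median over all genes was then -0.058, against -0.012 in the main fit.

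**Figure D3:**
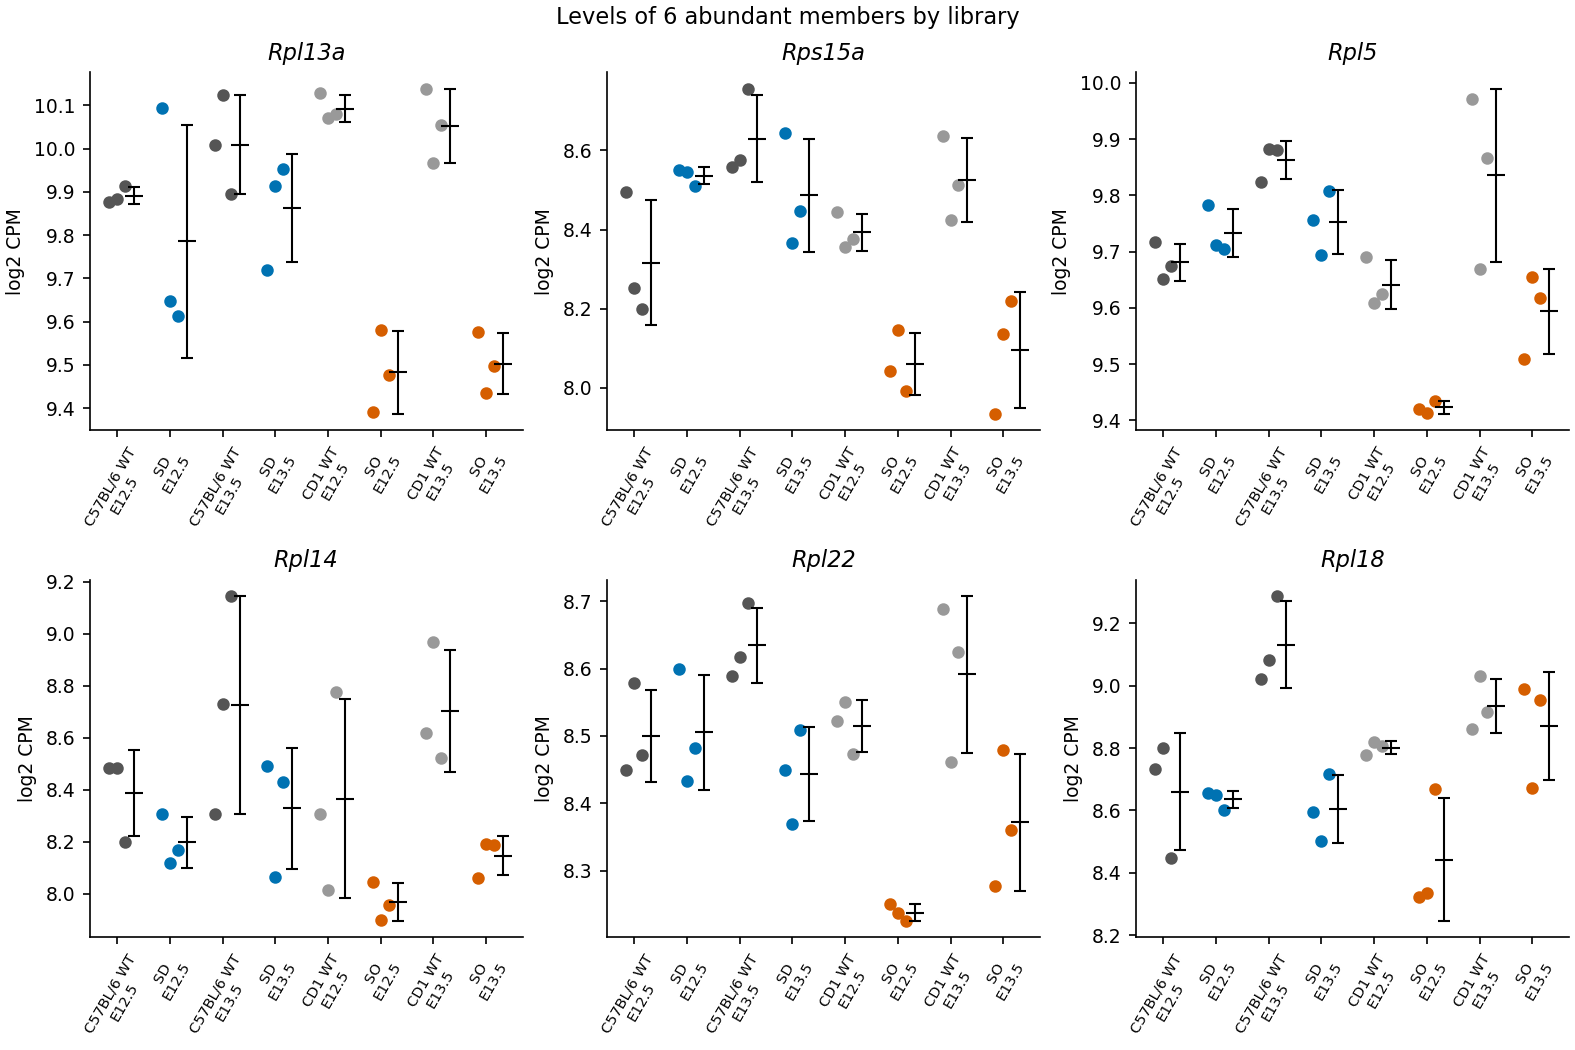
Levels (log2 CPM) of Rpl13a, Rps15a, Rpl5, Rpl14, Rpl22 and Rpl18 by library. Each coloured point is 1 library and each black bar a group mean ± SD (n = 3). For Rpl13a all 6 SO libraries lie at or below 9.58, and the 6 CD1 wild-type libraries at or above 9.97.

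The sequence at the transcription start of these genes is shown because TOP tracts begin there. Windows run from 50 bases before to 30 bases from the RefSeq start (GRCm38.p6), 5′ to 3′ on the transcribed strand. Capitals mark the longest run of a C followed by at least 6 further C or T bases between 20 bases before the start and 30 bases from it, searched on the transcribed strand only. The 4 genes shown fell in SO cells at E12.5 and have such a run. Rpl13a lies at chr7:45128716-45128795 on the minus strand, Rps15a at chr7:118116118-118116197 on the minus strand, Rpl18 at chr7:45718021-45718100 on the plus strand and Rpl5 at chr5:107900478-107900557 on the plus strand.
Rpl13a: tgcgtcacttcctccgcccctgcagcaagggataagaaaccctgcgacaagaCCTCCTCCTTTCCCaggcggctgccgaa
Rps15a: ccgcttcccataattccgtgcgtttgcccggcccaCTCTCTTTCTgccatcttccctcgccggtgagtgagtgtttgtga
Rpl18: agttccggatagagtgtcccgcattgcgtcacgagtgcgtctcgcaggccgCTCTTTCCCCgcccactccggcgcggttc
Rpl5: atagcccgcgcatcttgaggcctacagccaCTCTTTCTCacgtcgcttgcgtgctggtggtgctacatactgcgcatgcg

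Such a run was found in 37 of the 59 members with a window in the RefSeq table (62.7%) and in 25% of all 27025 genes in it. The share was nearly the same in members called and not called: 12 of 19 members that fell in SO cells at E12.5 had one (63.2%), and 25 of the other 40 (62.5%). Among members that rose between stages in C57BL/6 wild-type cells, described below, 5 of 8 had one (62.5%), against 32 of the other 51 (62.7%). A match describes the letters only and does not show that a mRNA starts there.

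SD cells were compared with C57BL/6 wild-type cells, asking what loss of beta-catenin goes with. At E12.5, 59 of 80 members lay above their wild-type level and 21 below, with a median log2 change of 0.08 (0.05 to 0.13 with 1 library left out; the highest without wild-type replicate 1, the lowest without replicate 3). Erythroid markers stood at 3.09 to 5.91 log2 CPM in SD cells and 9.15 to 9.70 in wild-type cells, and their part was not tested. A single member, Rpl29, fell and none rose, where 0.732% of all genes fell and 0.985% rose, 1.72% in all. At an unadjusted p below 0.05, 14 members passed, against 13.9% of all genes. The count called was 2 without SD replicate 1 or without SD replicate 2, and 2 with the 12 libraries of the line alone.

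At E13.5 the balance was the other way: 67 of 80 members lay below their wild-type level, with a median of -0.15. That median was -0.09 without SD replicate 2 and -0.06 with the length trend removed, where that over all genes was 0.035, against 0 in the main fit. The 4 that fell were Rpl29, Rpl18, Rpl35 and Rpl7l1, all named for the large subunit, where 2.07% of all genes fell and 1.33% rose, 3.4% in all. Rpl18 had 9.02, 9.08 and 9.29 log2 CPM in wild-type cells and 8.60, 8.50 and 8.72 in SD cells, without overlap (log2 change -0.53, SE 0.10, adjusted p = 0.0036). Rpl35 had 8.51, 8.81 and 8.61 against 8.28, 8.09 and 8.20 (log2 change -0.45, SE 0.13, adjusted p = 0.047). Rpl7l1 had 7.64, 7.68 and 7.59 against 7.39, 7.41 and 7.48 (log2 change -0.21, SE 0.06, adjusted p = 0.047). Rpl29 and Rpl18 kept their calls in each of the 6 fits without 1 library. The Rpl35 call was lost in 5 of these 6 fits (highest adjusted p = 0.24) and the Rpl7l1 call in 6 of 6 (highest adjusted p = 0.18). Just 2 members in all were called when any one of SD replicates 1 and 2 and wild-type replicates 2 and 3 was left out. With the trend on transcript length taken out only Rpl29 was called, and Rpl18 then had an adjusted p of 0.070.

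The summed macrophage markers (6 of 6 measured) stood at 3.48 to 5.12 log2 CPM in SD cells at E13.5 and 7.13 to 7.89 in their wild-type, and endothelium markers (5 of 5) at 3.91 to 4.34 and 6.21 to 6.43. Erythroid markers were at 2.95 to 5.34 and 5.35 to 10.20. Their part in the lower ribosomal protein levels was not tested. The difference between the SD effects at E13.5 and E12.5 lay below 0 in 72 of 80 members, with a median of -0.23 (-0.13 with the length trend removed). No member and 0% of all genes passed limma's test of that difference. At an unadjusted p below 0.05, 22 members passed, 20 of them negative, against 5.46% of all genes. Rps12 and Rpl35 were the nearest, each with an adjusted p of 0.83. Without SD replicate 2 of E12.5, 1 member was called.

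In C57BL/6 wild-type cells ribosomal protein genes were higher at E13.5 than at E12.5: 72 of 80 lay above their E12.5 level, with a median log2 change of 0.25, and 9 rose while none fell. Of all genes 2.08% rose and 1.88% fell, 3.96% in all. In 39 members all libraries of E13.5 lay above all libraries of E12.5, against 13.1% of all genes. The SD comparisons use these same wild-type libraries, so these sets of values are not independent.

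All 3 stalk protein genes were among the 9. Rplp1 had 9.57, 9.55 and 9.62 log2 CPM at E12.5 and 9.89, 10.02 and 10.11 at E13.5, a change of 0.42 (SE 0.08, adjusted p = 0.0079). Rplp0 and Rplp2 rose by 0.28 and 0.31 (adjusted p = 0.040 and 0.044), but these calls were lost in 5 of 6 and 6 of 6 fits without 1 library (highest adjusted p = 0.18 and 0.19), whereas that of Rplp1 was lost without replicate 3 of E13.5 alone. The largest of the 9 changes was that of Rps12, with 7.08, 7.11 and 6.55 log2 CPM at E12.5 and 7.87, 7.92 and 7.45 at E13.5 (log2 change 0.84, SE 0.22, adjusted p = 0.034). Its call was lost in 6 of 6 fits without 1 library (highest adjusted p = 0.13). Rps12 encodes a small subunit protein known from cell competition in flies. Rpl18 rose by 0.47 (SE 0.10, adjusted p = 0.013) and Rpl12 by 0.37 (SE 0.10, adjusted p = 0.034), calls that were lost in 1 and 5 of 6 such fits. The others were Rps16, Rps15a and Rpl4, with changes between 0.25 and 0.34 and calls lost in 3, 4 and 3 of 6. This count rested on single libraries: 0 members were called without replicate 3 of E13.5, 2 rose and 1 fell without its replicate 2, and 2, 4 and 6 were called without replicates 2, 3 and 1 of E12.5. The members' median stayed between 0.20 and 0.28. One wild-type library of E12.5 had hepatocyte markers at 11.89 log2 CPM and the lowest of that group stood at -0.42. Nephron progenitor markers (5 of 5 measured) stood at 3.54 to 4.82 at E12.5 and 5.10 to 5.65 at E13.5, without overlap. The part of these cells in the result was not tested.

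In CD1 wild-type cells 60 of 80 members lay above their E12.5 level at E13.5, with a median of 0.11 (0.03 without replicate 1 of E13.5). Rps28 and Rpl4 rose and Rpl35a and Rps4l fell, where 2.42% of all genes rose and 3% fell, 5.42% in all. Rpl4, which lines part of the peptide exit tunnel, rose in both strains: by 0.25 in C57BL/6 (SE 0.06, adjusted p = 0.023) and by 0.23 in CD1 (SE 0.06, adjusted p = 0.028). It was the only member to rise in both, and 58 members lay above 0 in both, counts that were not made over all genes. Neither Rpl4 call was firm: it was lost in 3 of 6 fits without 1 library in C57BL/6 and in 5 of 6 in CD1, and with the length trend removed in both (adjusted p = 0.11 and 0.073). The Rpl35a call was lost with precision weights (adjusted p = 0.13), and the Rps28 call in 5 of 6 fits without 1 library. In CD1 the count was 2 without replicate 2 or 3 of E12.5 or replicate 1 or 3 of E13.5, and 7 without replicate 2 of E13.5. Hepatocyte markers stood at 7.50 to 7.60 log2 CPM at E12.5 and -0.74 to 9.66 at E13.5. Macrophage markers were at 9.15 to 9.20 and then 7.94 to 8.29, and nephron progenitor markers at 4.28 to 5.23 and then 5.39 to 8.29, both without overlap. Their part was not tested.

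The wild-types of the strains, each the control of its own line, were then compared with each other. At E12.5, 4 members were higher in C57BL/6 than in CD1 cells and none lower, where 0.384% of all genes were called higher and 0.159% lower. At E13.5, 5 were higher and none lower, where 0.333% were called higher and 0.0869% lower. Rpl29, Rpl35a, Rps2 and Rps28 were called at both stages, which share no library, and Rps4l at E13.5 only. How many of all genes were called at both was not counted. The other members were not called, and the medians over all 80 were -0.07 at E12.5 and 0.09 at E13.5. These medians depended on single libraries, running from -0.10 to -0.02 at E12.5 (lowest in size without C57BL/6 replicate 3 and, at -0.03, without CD1 replicate 1) and from 0.03 to 0.14 at E13.5 (smallest without CD1 replicate 2 and, at 0.04, without C57BL/6 replicate 3; largest without CD1 replicate 1). With the length trend removed the median at E12.5 was -0.005, where that over all genes was 0.086. The count at E12.5 was 2 without C57BL/6 replicate 1, and 1 without C57BL/6 replicate 2 or CD1 replicate 2. In those fits Rpl29 and Rps2 lost their calls (highest adjusted p = 0.066 and 0.077), and Rpl35a did without C57BL/6 replicate 2 or CD1 replicate 1 or 2 (highest adjusted p = 0.056), while Rps28 kept its call at E12.5 throughout. At E13.5 Rpl35a lost its call with precision weights (adjusted p = 0.12) and Rps28 without C57BL/6 replicate 2 (adjusted p = 0.051). Erythroid markers stood at 9.15 to 9.70 log2 CPM in C57BL/6 and 11.65 to 11.69 in CD1 cells at E12.5, and macrophage markers at 6.37 to 9.01 and 9.15 to 9.20 at E12.5 and at 7.13 to 7.89 and 7.94 to 8.29 at E13.5. Their part was not tested.

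Rpl29 (chromosome 9, 106429454 to 106431568, plus strand, 4 exons) encodes a large subunit protein. It had 4.14, 3.87 and 3.74 log2 CPM in C57BL/6 wild-type cells at E12.5 and 4.11, 4.58 and 4.56 at E13.5. In SD cells, labelled with the same strain, it had 0.40, 0.71 and 0.75 at E12.5 and -0.21, 0.60 and 1.18 at E13.5. All CD1 wild-type and SO libraries lay at or below 1.48. The high libraries were thus the 6 C57BL/6 wild-type ones alone, with 120 to 218 reads each, while each of the other 18 had 1 to 27 reads. Both SD falls (log2 changes of -3.30 and -3.89, SE 0.58, adjusted p = 0.0031 and 0.00043) and both differences between the wild-types (3.19 and 3.74, adjusted p = 0.010 and 0.0020) come from those 6 libraries, which the comparisons share.

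Rpl35a (chromosome 16, 33056453 to 33060189, plus strand, 5 exons) encodes a large subunit protein whose loss is a known cause of Diamond-Blackfan anaemia. CD1 wild-type libraries had 42, 54 and 97 reads at E12.5 and 2, 1 and 0 reads at E13.5, whereas each of the other 18 libraries had 121 to 820 reads. On the log2 CPM scale the CD1 wild-type libraries stood at 2.15, 2.42 and 3.33 and then at -2.74, -2.17 and -3.94. SO libraries stood at 4.64, 4.25 and 4.69 at E12.5 and 6.07, 4.55 and 4.66 at E13.5. Relative to library size, SO cells at E13.5 had 368 times the summed reads of their wild-type (1633 against 3 reads, 95% exact counting interval 126 to 1785). The same ratio was 67.9 (22.9 to 332) for CD1 wild-type cells at E12.5 against E13.5, and 299.5 (102 to 1456) for C57BL/6 against CD1 wild-type cells at E13.5. These intervals cover counting error only. The fitted log2 changes were 1.90 for SO at E12.5 (SE 0.37, adjusted p = 0.0015) and 8.04 at E13.5 (adjusted p = 2.7e-13), and the latter depends on the 0.5 added to each count.

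Rps2 (chromosome 17, 24718116 to 24721929, plus strand, 6 exons), at the mRNA entry side of the small subunit, had 5.65 to 6.46 log2 CPM in the 6 C57BL/6 wild-type libraries and 5.81 to 6.82 in the 6 SD libraries. CD1 wild-type libraries had 4.12, 3.53 and 4.59 at E12.5 and 4.70, 4.02 and 3.91 at E13.5, and SO libraries 2.56, 1.45 and 2.42 and then 2.35, 3.36 and 3.36. The 12 libraries of the C57BL/6 line were all above the 12 of the CD1 line, and SO cells lay below their wild-type at both stages. The differences between the wild-types were 1.73 and 2.02 (SE 0.32, adjusted p = 0.010 and 0.0020), and the SO falls -1.93 and -1.19 (SE 0.32, adjusted p = 0.00027 and 0.012). With precision weights the SO call at E12.5 was lost (adjusted p = 0.099), and that at E13.5 was lost without SO or CD1 wild-type replicate 1 (highest adjusted p = 0.095).

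Rps28, a small subunit protein gene, had 7.53, 7.58 and 7.51 log2 CPM in C57BL/6 wild-type cells at E12.5 and 6.89, 6.75 and 6.70 in CD1 wild-type cells, a difference of 0.76 (SE 0.11, adjusted p = 0.00061). At E13.5 the values were 7.76, 7.84 and 7.73 against 7.18, 7.20 and 7.13 (difference 0.61, SE 0.11, adjusted p = 0.0071). Rps4l, the transcribed pseudogene of Rps4x, stood at 5.15, 4.85 and 4.48 log2 CPM in CD1 wild-type cells at E13.5 and between 5.55 and 6.44 in the other 21 libraries. Its change in those CD1 cells was -0.92 from E12.5 (adjusted p = 0.00053), and SO cells at E13.5 were higher by 0.88 (SE 0.14, adjusted p = 0.00010). Its parent Rps4x was called in no comparison.

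**Figure D4:**
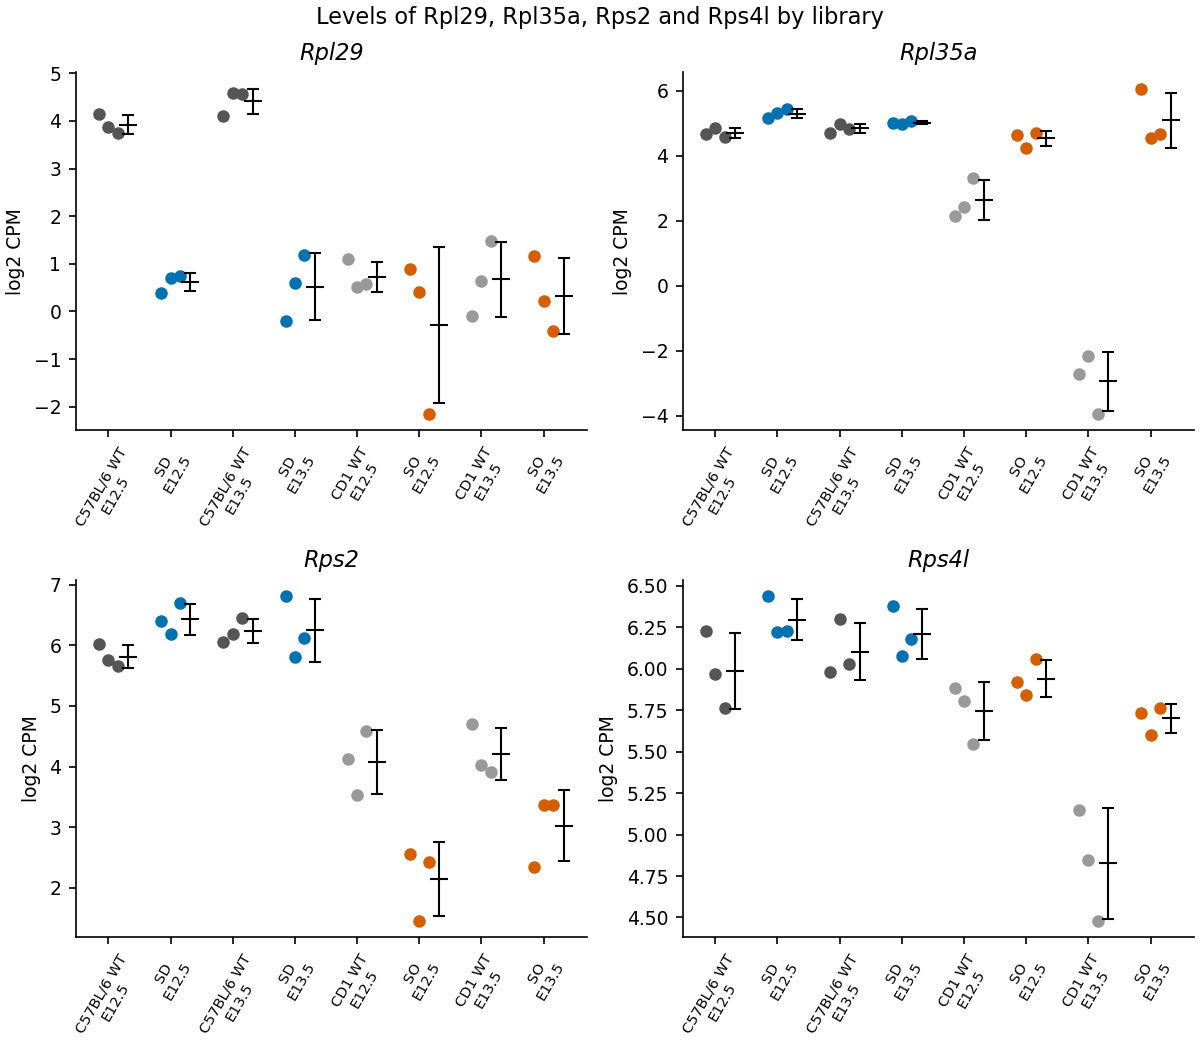
Levels (log2 CPM) of Rpl29, Rpl35a, Rps2 and Rps4l by library. Each coloured point is 1 library and each black bar a group mean ± SD (n = 3), and the vertical axes differ between panels. Rpl29 is above 3.7 in the C57BL/6 wild-type libraries alone, and Rpl35a lies below -2 in the 3 CD1 wild-type libraries of E13.5.

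Reads of these genes have other places to align. Rpl29 had 33 other annotated loci at least 95% identical over 100 nt or more, Rps2 had 32 and Rpl35a 14. For Rpl35a, 8 loci matched its whole coding sequence of 330 nt without a gap and with at most 5 mismatches, and for Rpl29 (480 nt) 5 loci did. For Rps2 (879 nt) 0 loci did, and its closest copy had 7 mismatches. A stretch of 100 coding bases of Rpl35a and of Rpl29 (GENCODE M21) is shown beside the same stretch of a processed pseudogene, with the bases that differ in capitals, to show how little separates these pairs. Gm10243 lies at chr6:48523518-48523850 on the plus strand and has 1 mismatch in the whole coding sequence of Rpl35a. Gm13841 lies at chr5:115801677-115802159 on the minus strand and has 3 in that of Rpl29, of which the stretch holds 1.
Rpl35a, coding bases 106 to 205: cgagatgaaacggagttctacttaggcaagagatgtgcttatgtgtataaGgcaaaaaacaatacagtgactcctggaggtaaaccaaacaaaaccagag
Gm10243: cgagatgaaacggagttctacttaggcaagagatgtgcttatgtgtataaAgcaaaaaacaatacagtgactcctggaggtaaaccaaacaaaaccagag
Rpl29, coding bases 250 to 349: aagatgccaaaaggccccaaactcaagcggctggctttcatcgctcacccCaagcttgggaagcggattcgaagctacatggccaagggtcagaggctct
Gm13841: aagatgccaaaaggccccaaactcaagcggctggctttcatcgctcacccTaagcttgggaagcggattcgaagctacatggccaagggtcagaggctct

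The sources used here do not give how reads that fit several loci were counted. Levels of such members are therefore uncertain, and the part of copies, or of strain differences in them, in the differences above was not tested. Across all 80 members, 77 had at least 1 such locus. The 8 members with a mean level under 4 log2 CPM had a median of 11 near-identical loci and the other 72 a median of 6. The 14 members whose group means ranged over 1 or more had a median of 9.5, and the other 66 a median of 5.5. Over all 80 members the Spearman correlation of the number of loci was 0.21 with this range and -0.39 with the level per kb. Exceptions ran both ways: Rpl7a, with 40 loci, had one of the narrowest ranges, while Rps4l had none and ranged over 1.47. Rpl21, with 62 loci, Rps27a and Rpl17 ranged over 3.78, 3.71 and 2.59, chosen for mention after their values were seen, yet were called in no comparison, with within-group SDs of 1.41, 1.38 and 1.26.

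**Figure D5:**
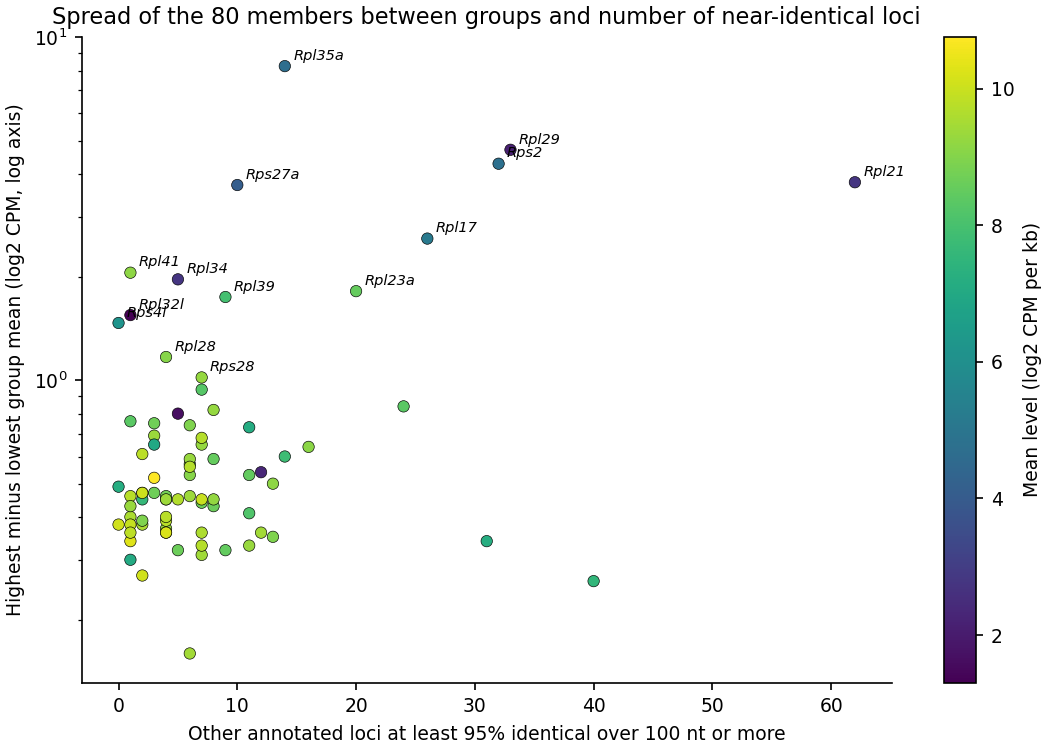
Range of the 8 group means of each member (log2 CPM, log axis) against the number of other annotated loci at least 95% identical over 100 nt or more. Each point is 1 gene, coloured by its mean level per kb, and the 14 members with a range of 1 or more are named. Rpl35a (14 loci), Rpl29 (33) and Rps2 (32) have the widest ranges, and Rpl7a (40 loci) one of the narrowest.

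Companion lists were read the same way in SO cells, and differences between lists were not tested. Of all genes, 5.17% rose and 3% fell at E12.5, and 8.53% rose and 6.83% fell at E13.5. None of 60 ribosome biogenesis genes was called at E12.5, where their median log2 change was 0.02, and Dkc1, Ltv1 and Gnl2 fell at E13.5 (changes of -0.35, -0.36 and -0.32). Of 20 translation factors with known TOP mRNAs none was called at E12.5, with 15 below 0 and a median of -0.11, and 1, Eif4b, fell at E13.5 by 0.22, with 16 below 0. The 4 measured cytosolic ribosome genes outside the naming rule had a median of -0.24 at E12.5, with 3 below 0. Of them, Rack1 fell at E12.5 (log2 change -0.27, SE 0.07, adjusted p = 0.018), and Fau (0.03) and Rpl36al (-0.89) were not called. Of 78 mitochondrial ribosomal protein genes none was called at E12.5 (median -0.04) and 1, Mrps9, fell at E13.5.

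In the RNA polymerase I list (21 genes), Polr1d and Polr1c fell in SO cells at E12.5 (-0.55 and -0.32), while Polr2k rose by 2.62 (SE 0.71). Polr2k was at a low level, with a mean of -0.71 log2 CPM in wild-type and 1.91 in SO cells. At E13.5 Polr1b, Polr2l and Polr1d fell. The 9 genes of the Myc network moved both ways. Mycl rose in SO cells at E12.5 by 0.88 (SE 0.12, adjusted p = 4.6e-05), and at E13.5 Mxd3, a Myc antagonist, rose by 0.83 and Mnt, another, fell by 0.32. Mycn, a Myc family gene of kidney progenitors, fell in SO cells at E13.5 by 0.84 (SE 0.12, adjusted p = 1.9e-05) and in SD cells at E13.5 by 0.54 (SE 0.12, adjusted p = 0.011). Among 21 genes of mTOR and S6 kinase signalling, Rictor rose in SO cells at E12.5 by 0.52, and Eef2k, which restrains elongation, and Eif4ebp1, which restrains cap-dependent initiation, rose at E13.5 by 0.63 and 0.71, so that 1 of 21 rose at E12.5 and 2 of 21 at E13.5, shares near those of all genes. The 18 measured p53 targets moved both ways in SO cells: at E12.5 Plk2 and Gtse1 rose by 0.61 and 0.42 and Btg2 fell by 0.93, and at E13.5 Plk2, Gtse1 and Phlda3 rose by 1.02, 0.42 and 0.53 and Btg2 fell by 1.07. Immediate early genes, which respond to tissue dissociation, were called in both directions in SO cells: 2 of 18 rose and 2 fell at E12.5, and 3 rose and 1 fell at E13.5. These counts stand beside the all-gene shares above. Of the 18, 9 lay above their wild-type level at E12.5 and 13 at E13.5. The summed level of the immediate early genes at E12.5 was 9.49 to 9.53 log2 CPM in SO cells and 9.18 to 9.32 in wild-type cells. At E13.5 it was 9.54 to 9.80 and 8.95 to 9.21, without overlap at either stage. Its part in the ribosomal protein levels was not tested.

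In SD cells at E13.5, 8 of 60 ribosome biogenesis genes fell and none rose, with a median of -0.20 and 59 of 60 below 0, where 2.07% of all genes fell. The nucleolar genes Nhp2 (-0.51, SE 0.11, adjusted p = 0.0066), Noc2l (-0.32), Ncl (-0.26) and Tsr1 (-0.35) had the smallest adjusted p. In SD cells at E12.5 none of the 60 was called, with 49 below 0 and a median of -0.11. The ribosomal protein genes then had a median of 0.08. Between E12.5 and E13.5, 8 of the 60 rose in C57BL/6 wild-type cells, among them Nhp2 (0.59), Ncl (0.30), Rrs1 (0.46) and Nop58 (0.33), and 12 rose in CD1 wild-type cells, among them Wdr43 (0.46), Ncl (0.32), Noc2l (0.35) and Gar1 (0.57). None of the 60 fell in either strain, and of all genes 2.08% rose in C57BL/6 and 2.42% in CD1. Npm1, a nucleolar chaperone with a TOP mRNA, rose by 0.29 in C57BL/6 (adjusted p = 0.032) and in CD1 (adjusted p = 0.026). The SD comparison at E13.5 and the C57BL/6 stage comparison share the wild-type libraries of E13.5.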

How the data were processed

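RNA levels were deposited by the authors as 1 table of log2 CPM values for 24 libraries. Per the submitters' processing notes HISAT2, HTSeq, limma and the mm10 build were used, and the sources used here do not give versions or settings, including strand and reads with several alignments. The deposited log2 values equalled log2 CPM with 0.5 added to each count over TMM-scaled library sizes: whole reads came out for 100% of values (tolerance 0.1 reads), with totals of 6184257 to 21168300 reads. Groups came from the labels, and 0 value columns were left unmapped. All 8 group means were fitted in limma 3.58.1 (R 4.3.3) over 13803 genes without a filter, with a trended prior (16 residual and 6.43 prior degrees of freedom), and p-values were adjusted by Benjamini-Hochberg over all genes in each of 10 comparisons. The fit was tested on simulated data. Transcript lengths and near-identical loci came from GENCODE M21 with blastn 2.17.0 (99.1% of symbols matched), and starts from RefSeq (GRCm38.p6, 59 of 80 members matched). Figures were drawn with matplotlib 3.10.9 in Python 3.11.15. Named in the text were all called members of a comparison, or beyond 8 the 4 largest changes each way, then paralogue pairs, the 4 highest and lowest levels per length, the 3 widest and narrowest ranges, and of each companion list at most 4 called genes. Some genes that the rule would name are not reported here. Members and lists were chosen with earlier results of these data known. Alternatives were another pseudocount, a filter on low genes, precision weights, other scalings, a length trend removed, fewer libraries and a replicate block.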

Additional observations from a re-analysis of the deposited data

Results flagged for a closer look

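Rpl35a was the member whose SO effect differed between stages by a test of that difference: the log2 change was 1.90 at E12.5 and 8.04 at E13.5, a difference of 6.15 (SE 0.52, limma adjusted p = 5.3e-07). The step lies in the wild-type libraries, with 42, 54 and 97 reads at E12.5 and 2, 1 and 0 at E13.5, against 121 to 171 and 318 to 820 reads in SO libraries. With precision weights the difference was 6.04 and no longer passed (adjusted p = 0.19). The part of near-identical loci in it was not tested.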

How the results depend on the processing

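Counts of members called that moved by more than 1.5 times were as follows. With 2 added to each count, SD against wild-type at E13.5 gave 2 in place of 4. Precision weights gave 2 there, 19 in place of 10 for SO at E13.5, and 0 in place of 1 for the SO difference between stages. With the length trend removed the counts were 1 for SD at E13.5, 13 in place of 24 for SO at E12.5, and 4 in place of 9 for the C57BL/6 stages. With only the 12 libraries of a line, SD gave 2 at E12.5 and 2 at E13.5. Leaving out 1 library at a time gave 1 to 2 for SD at E12.5, 2 to 3 for SD at E13.5, 8 to 14 for SO at E12.5, 5 to 17 for SO at E13.5, 0 to 1 and 1 to 2 for the differences of the SD and SO effects between stages, 0 to 13 for the C57BL/6 stages, 2 to 7 for the CD1 stages, 1 to 5 for the strains at E12.5 and 4 to 6 at E13.5. Where 2 libraries remain, they are assumed to vary like the other groups.

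The replicate block gave 1 and 3 members for SD at E12.5 and E13.5, 16 and 12 for SO, 0 and 1 for the differences of these effects between stages, 6 and 4 for the C57BL/6 and CD1 stages, and 5 and 5 for the strains. In no comparison were the correlations of all 3 same-numbered pairs of libraries over 0.1: they ran from -0.365 for the CD1 stages to 0.276 for SD at E12.5, where the others were 0.198 and 0.072. The labels do not say what the replicate number stands for. These correlations, taken around means of 3 libraries, cannot settle whether same-numbered libraries were paired.

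Of the 62 gene results, 0 reversed in any fit. The call held in 220 of 378 fits without 1 library and in 429 of 496 other alternatives. The members' median change kept its sign in every alternative listed, though its size moved by over 1.5 times in several, as given with each comparison. For the strains at E12.5 it was only -0.005 with the length trend removed. With the 50 most abundant other genes left out, the share of reads was 3.29% in SO and 3.99% in CD1 wild-type cells at E12.5. The count tests planned on recovered reads were not run, since the deposited unit is a log2 value, and RLE scaling was run within limma instead. Depth limits Rpl32l, which had 1 to 32 reads in a library, Rps27 with 5 to 34 and Rpl34 with 5 to 124. It also limits Rpl35a, Rpl29 and Rps2, whose lowest libraries had 0, 1 and 17 reads. The lowest libraries of Rpl30, Rpl21, Rpl17 and Rps27a had 8, 10, 11 and 18.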
